A study of Mus musculus with 6 samples.

Results

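Naloxone was compared with DAMGO in cultured mouse neural stem cells, using the naloxone library and the DAMGO library of each of 2 cell states, 4 of the 6 RNA sequencing libraries of the series. The cells were of strain OG2 at passage 8 in every library. One state was kept as neural stem cells (NSC), and the other had been differentiated and is marked D2, a term that the labels leave undefined. The 2 control libraries, 1 per state and without ligand, stayed out of the test and are given as values beside the others. They enter only the alternative fits of 5 or 6 libraries that are named as such. Genes with a mean expected count of at least 10 over the 4 libraries were kept, which was 13193 of 29267 gene identifiers and at least 99.8% of the counts of each library. Each group held 1 library, and nothing in the labels says whether the libraries came from separate cultures, so a p-value here reflects nothing beyond how these 4 libraries vary, part of which may be technical. Library totals were 13561237 (naloxone) and 9112916 (DAMGO) expected counts in NSC and 8417074 and 8809642 in D2.

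Opioid receptors are receptors coupled to Gi/o proteins. An agonist such as DAMGO, a peptide selective for the mu receptor, lowers cyclic AMP through the alpha subunit, and the released beta-gamma subunits act on ion channels and on ERK signalling. Naloxone competes for the binding site of the mu, delta and kappa receptors and blocks agonists and endogenous opioid peptides. Opioid signalling has been studied in neural stem cells for its part in division and in the choice between neuronal and glial fates, and the title of the series names proliferation and differentiation.

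The receptors for these ligands were close to or below detection. Oprm1, the mu receptor, had 0 counts in all 4 libraries, which allows a level of up to 0.0752 CPM (counts scaled to library size, per 1000000) over the 4 together, for counting error only. Oprd1, the delta receptor, and Oprk1, the kappa receptor, had 1 count each over the 4 libraries. Among the peptide precursors, Penk had 1 count, Pdyn had 2 and Pomc had 16. Penk, which encodes the enkephalins, had 58 counts in the D2 control library, where both ligand libraries of that state had 0. Oprl1, the receptor for nociceptin, to which naloxone binds poorly, was present at 1.33 CPM with naloxone and 2.43 CPM with DAMGO in NSC, and at 20.3 and 17.7 CPM in D2. Its 2 ratios pointed in opposite directions (log2 ratio of naloxone to DAMGO -0.78 in NSC and 0.19 in D2), and both counting intervals included equality. Ogfr, the opioid growth factor receptor, which binds met-enkephalin and is unrelated to the classical receptors, had 82.1 and 80.4 CPM in NSC and 165 and 170 CPM in D2. Neither Oprl1 (log2 fold change over both states 0.00) nor Ogfr (-0.01, SE 0.08) passed the test, and the other receptor and peptide genes given here had too few counts to be tested. An SE is taken from the fold change and the test statistic, and for Oprl1 it is left out as unstable so near 0.

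Few genes differed between the ligands when state and ligand were fitted together. Of the 13193 genes, 32 had an adjusted p under 0.05 in edgeR's quasi-likelihood test (0.243%), 11 higher with naloxone (0.0834%) and 21 lower (0.159%), and 333 had an unadjusted p under 0.05. Of the 32 called genes, 26 carry names of predicted genes or only an identifier, and 29 have fractional expected counts, which arise when a read fits several genes and is divided between them. Among all tested genes 40.3% had fractional counts. For 10 of the called genes both NSC libraries had at most 3 counts, and for 6 both D2 libraries did, so those calls rest on a single pair of libraries. For 15 of the 32 the mean count fell under 10 once the library with the highest count was left aside (2.69% of all tested genes), so these met the filter only through the library in which they were high. When only the 7873 genes with whole counts were tested, 5 were called. Of these, 3 were among the 32, namely Pgk1-rs7, Zfp781 and Gm3055. They share 100%, 97.0% and 93.8% of their 31-base sequence words with another gene, so whole counts do not set aside genes with shared sequence. When the state term was left out none was called (1 gene had an unadjusted p under 0.05). With limma on log2(TPM + 1) 0 were called, with 413 genes at an unadjusted p under 0.05.

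The largest group of called genes consisted of predicted genes that resemble satellite repeat. There were 13 genes that share at least 10% of their 31-base words with Gm10800 directly or through another called member, of which 12 were tested and 11 called, all lower with naloxone. The group was gathered outward from called genes, so the number called in it is a description and no test. Of the 13, 10 lie in a single cluster at chr9:3000282-3038316 (GRCm38). Gm10800 (chr2:98666547-98667301) and Gm10801 (chr2:98662237-98664083) lie side by side on chromosome 2, and Gm21738 (chr14:19415857-19418930) lies on chromosome 14. Their transcripts had a GC content near 35% and repeated themselves best at a shift of 225 to 237 bases. The most frequent best shift, 234 bases, is the unit length of the major satellite that makes up mouse pericentromeric heterochromatin. At their best shift the 3 Gm26870 transcripts matched themselves at 78.3%, 81.5% and 95.9% of bases, and those of the other members at 52.8% to 69.7%. Of all 31-base words of Gm10800, 42.0% were found in other genes. The 3 stretches of 120 bases that follow, from GENCODE M21 transcripts of 3 of these genes, were picked where the 3 are most alike. The 111 bases that are the same in all 3 are in capitals. They lie at chr14:19417241-19417360 (minus strand), chr2:98666761-98666880 (minus strand) and chr9:3037749-3037868 (plus strand, opposite to the strand of Gm26870 itself).
Gm21738: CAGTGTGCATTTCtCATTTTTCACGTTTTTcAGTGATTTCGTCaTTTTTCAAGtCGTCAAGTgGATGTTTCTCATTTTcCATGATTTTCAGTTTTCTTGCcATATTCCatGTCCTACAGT
Gm10800: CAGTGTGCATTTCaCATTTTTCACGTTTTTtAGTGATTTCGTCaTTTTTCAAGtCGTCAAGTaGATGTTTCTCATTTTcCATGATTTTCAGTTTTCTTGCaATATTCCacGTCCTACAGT
Gm26870: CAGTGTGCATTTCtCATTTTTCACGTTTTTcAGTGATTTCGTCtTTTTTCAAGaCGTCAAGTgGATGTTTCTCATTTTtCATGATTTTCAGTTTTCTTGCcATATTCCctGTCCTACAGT

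The satellite genes were most abundant in 1 library, D2 with DAMGO. Their summed counts were 8 with naloxone and 16 with DAMGO in NSC, and 2069 and 15156 in D2, and the controls had 178 and 3006. Scaled to library totals, the sums were 0.663 and 1.65 CPM in NSC and 246 and 1720 CPM in D2, beside 16.7 and 294 CPM in the controls. The D2 DAMGO library was thus 6.998-fold above D2 naloxone and 5.85-fold above D2 control, while D2 naloxone was 0.836 of D2 control. Every one of the 13 genes was lower with naloxone than with DAMGO in D2. They share sequence, and reads that fit several of them are divided between them, so the 13 are not independent. Gm10800 had 2 and 4 counts in NSC and 907 and 7316 in D2, and its log2 fold change of naloxone against DAMGO was -2.93 (SE 0.11, edgeR adjusted p = 2.34e-20). Gm26870, the long noncoding gene of the chromosome 9 cluster, had 1, 4, 770 and 4905 counts in the same order (log2 fold change -2.60, SE 0.11, edgeR adjusted p = 5.03e-19). Of the 11 called genes, 5 met the filter on low counts only through the D2 DAMGO library, where they are high. The NSC pair, with 8 and 16 counts for the family, adds almost nothing to these calls, which rest on the D2 pair.

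**Figure D1:**
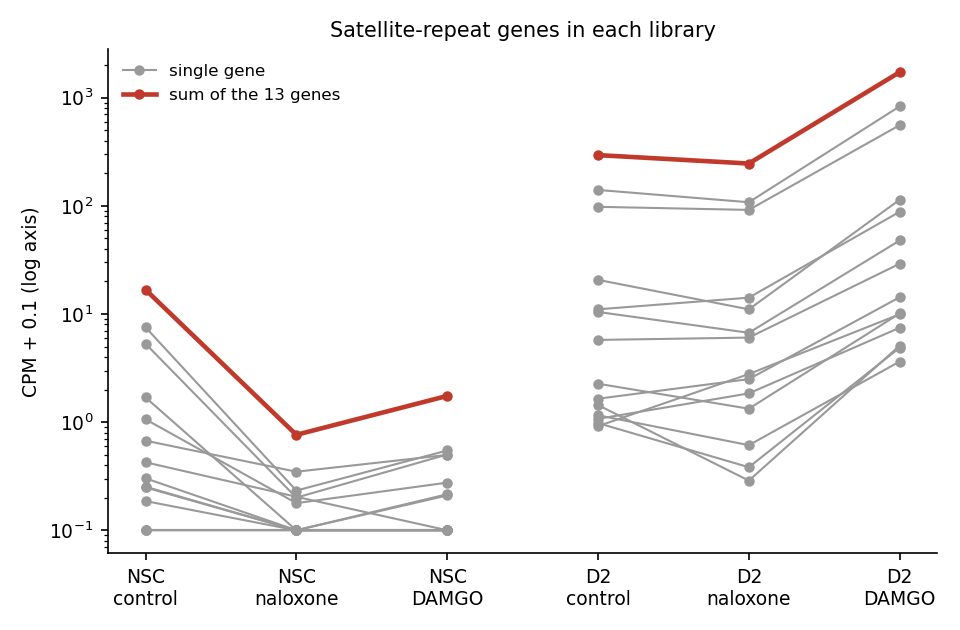
Level of each of the 13 satellite-repeat genes (grey) and of their sum (red) in the 6 libraries, as CPM of the library total plus 0.1 on a log axis. The sum stands at 1720 CPM in D2 with DAMGO against 246 and 294 CPM in the other D2 libraries and at most 16.7 CPM in NSC.

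The called genes outside the satellite group mostly share sequence with another gene. Of 21 such genes, 17 share between 45.9% and 100% of their 31-base words with the gene most like them, 3 (among them ENSMUSG00000102156 and ENSMUSG00000103565) have no transcript in GENCODE M21, and 1, Gm42418, shares none. Among all tested genes with a transcript, 5.22% have at least 40% of their words in other genes. Tom1, an adaptor of endosomal trafficking on chromosome 8 (chr8:75033705-75070121), had 143 and 282 counts in NSC and 0 and 125 in D2 (log2 fold change -2.14, SE 0.28, edgeR adjusted p = 5.95e-06). Its look-alike Gm5884 had 328 and 13 counts in NSC and 471 and 409 in D2. Added together the pair had 34.9 and 32.6 CPM in NSC and 55.8 and 60.3 CPM in D2, a difference of 1.07-fold and 1.08-fold. Aligned stretches of the 2 transcripts were identical over 1479 bases, so that a read from there fits both. The 60 bases that follow are from that stretch, at chr8:75047993-75048052 and chr6:128644965-128645024 (both plus strand, GENCODE M21), in capitals because all 60 bases are the same.
Tom1: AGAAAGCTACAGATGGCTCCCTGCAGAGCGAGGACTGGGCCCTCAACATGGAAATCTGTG
Gm5884: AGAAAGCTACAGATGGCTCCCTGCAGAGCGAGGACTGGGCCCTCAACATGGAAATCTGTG

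None of these 17 genes was within 1.5-fold in both states alone, which follows in part from their choice as called genes. When their counts were added to those of the gene they share most sequence with, 9 were. Pgk1, Zfp36l1, Rbm4b, Chsy1 and Gnas have several times the counts of the called gene they pair with. The larger gene weighs most in these sums, so a sum within 1.5-fold does not by itself show whether reads were divided. Pgk1-rs7, a processed copy of the glycolytic gene Pgk1, had 119 counts in NSC with naloxone, 0 in the other 3 libraries of the comparison, and 131 and 104 in the controls. With the 2 states pooled this was at least 32.4-fold more with naloxone (floor of 3 counts over the DAMGO libraries). All of it came from the NSC pair, as D2 naloxone and D2 DAMGO both had 0 counts. Pgk1 and its copy together had 611 and 646 CPM in NSC and 542 and 528 CPM in D2. Nanp, a sialic acid phosphatase, had 2 and 0 counts in NSC and 52 and 0 in D2, and together with Gm6741 it had 16.9 and 16.6 CPM in NSC and 13.4 and 13.7 CPM in D2. Gm20721, which shares 90.9% of its words with the Gs alpha gene Gnas, had 2075 and 474 counts in NSC but 1989 and 1830 in D2 (log2 fold change 0.80, SE 0.14, edgeR adjusted p = 0.00131). Gnas alone had 1172 and 1307 CPM in NSC and 1329 and 1386.5 CPM in D2. With Gnas added to Gm20721, the sums were 1326 and 1360 CPM in NSC and 1565 and 1593 CPM in D2. Gm26669 with Zfp36l1, Gm26827 with Chsy1, Gm37206 with Rbm4b, Gm14288 with Gm14440 and Gm4767 with Gm10778 also came within 1.5-fold in both states as sums. The zinc finger genes Zfp781 and Gm3055 did not, with a sum of 2.89 and 4.65 CPM in NSC and 1.30 and 0.452 CPM in D2. DXBay18, Zfp708 with Gm28557, and Gm4724 were likewise still past 1.5-fold in a state, at sums of at most 17.2 CPM.

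**Figure D2:**
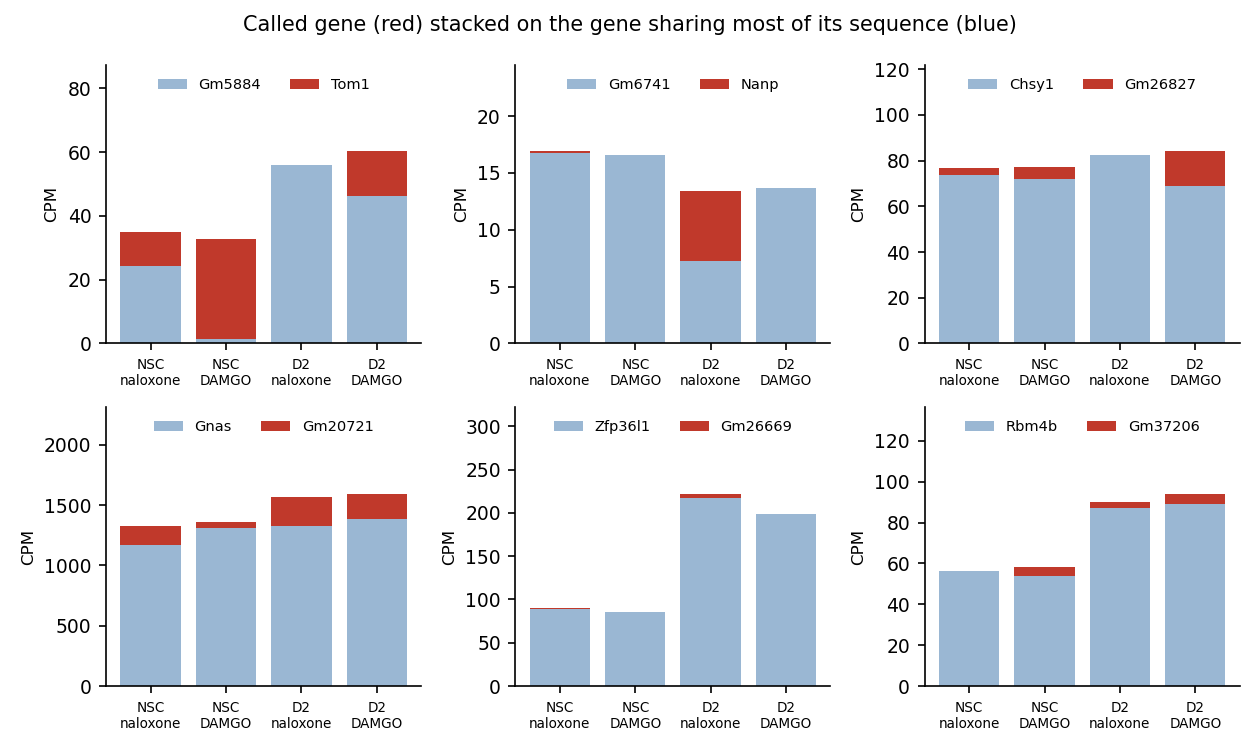
CPM, scaled by TMM size factors, of 6 called genes (red) stacked on the gene that shares most of their sequence (blue) in the 4 libraries of the comparison. The Tom1 and Gm5884 stack stands at 34.9 and 32.6 CPM in NSC and 55.8 and 60.3 CPM in D2 while its red part falls to 0 in D2 with naloxone.

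A further group was lower with naloxone in D2 also as a sum. Gm26905, a long noncoding gene (chr8:58171435-58298866), had 205 and 217 CPM of the library totals in NSC and 119 and 254 CPM in D2, with 233 and 94.9 CPM in the controls (log2 fold change -0.56, SE 0.11, edgeR adjusted p = 0.00902). With Gm37158 and Gm37903, which share at least 40% of their sequence words with it in 1 direction or the other, the sum was 317 and 342 CPM in NSC, and 169 and 374 CPM in D2 beside 135 CPM in the D2 control. The D2 DAMGO library was again the one that stood apart. Gm37158 and Gm37903 belong to the GENCODE class TEC, transcribed regions without a settled gene model. Of the other 43 TEC loci of at least 5 CPM, 31 were lower with naloxone in D2 (72.1%, beside 47.4% of all genes of that level) and 25 were in NSC (58.1% beside 50.2%). Summed over the other 145 tested TEC loci, D2 had 874 CPM with naloxone, 990 CPM with DAMGO and 775 CPM in the control.

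The other abundant called gene was higher with naloxone. Gm42418 (chr17:39846958-39848788), which RefSeq lists as an 18S ribosomal RNA related locus, had 255 and 222 CPM in NSC and 1386 and 950 CPM in D2, with 250 and 536 CPM in the controls (log2 fold change 0.38, SE 0.07, edgeR adjusted p = 0.00569). The log2 ratio was 0.20 in the NSC pair and 0.54 in the D2 pair. Lars2, the mitochondrial leucyl-tRNA synthetase, had the highest D2 ratio among genes of at least 20 CPM with a full gene name. BC037034, known by an accession-like name and with fractional counts, was above it, at 32.6 and 9.94 CPM in D2 (log2 ratio 1.69) and 26.3 and 28.3 CPM in NSC. Lars2 had 85.3 and 97.1 CPM in NSC and 301 and 149 CPM in D2, beside 96.6 and 106 CPM in the controls, so the 2 states went in opposite directions (log2 ratio -0.19 and 1.01). Its edgeR adjusted p was 0.362 in the additive model and between 1.55e-05 and 0.0154 when the scaling or the filter was changed or only whole counts were used, while with DESeq2, with limma and over all 6 libraries it stayed at 1.00.

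Apart from these genes, the 2 ligands gave nearly the same transcriptome within a state. In NSC 98.1% of 8081 genes of at least 20 CPM lay within 1.2-fold of equality, and in D2 92.7% of 7941 did. A difference of at least 1.5-fold was seen for 3 genes higher and 2 lower with naloxone in NSC (0.0371% and 0.0247%, 0.0619% together), all with fractional counts. In D2 it was seen for 6 higher and 19 lower (0.0756% and 0.239%, 0.315% together), of which 4 and 19 had fractional counts. The standard deviation of the log2 ratio over 8282 genes was 0.125 in NSC and 0.171 in D2. The same measure was 0.122 (naloxone) and 0.127 (DAMGO) against the control in NSC, and 0.182 and 0.169 in D2, comparisons that share libraries with each other. The median 95% confidence limit of the model lay 0.194 log2 units from the estimate for genes of at least 20 CPM, so smaller shared differences were not detectable gene by gene. That limit is not adjusted for the number of genes tested, so larger differences could also fail the test.

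What difference there was did not repeat from one state to the other. The pairs of the 2 states have no library in common, and the naloxone to DAMGO ratio had the same sign in 45.8% of the 13193 genes, in 44.2% of the 8292 genes of at least 20 CPM and in 43.0% of the 2607 genes of at least 100 CPM. Pearson's r was -0.02 and Spearman's rho -0.09 over all tested genes, and -0.06 and -0.14 over those of at least 20 CPM, as a description across genes, which share libraries and are not independent. Of 32 genes of at least 20 CPM that were past 1.2-fold in both states, 13 had the same sign (5 higher, 8 lower) and 19 opposite signs.

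**Figure D3:**
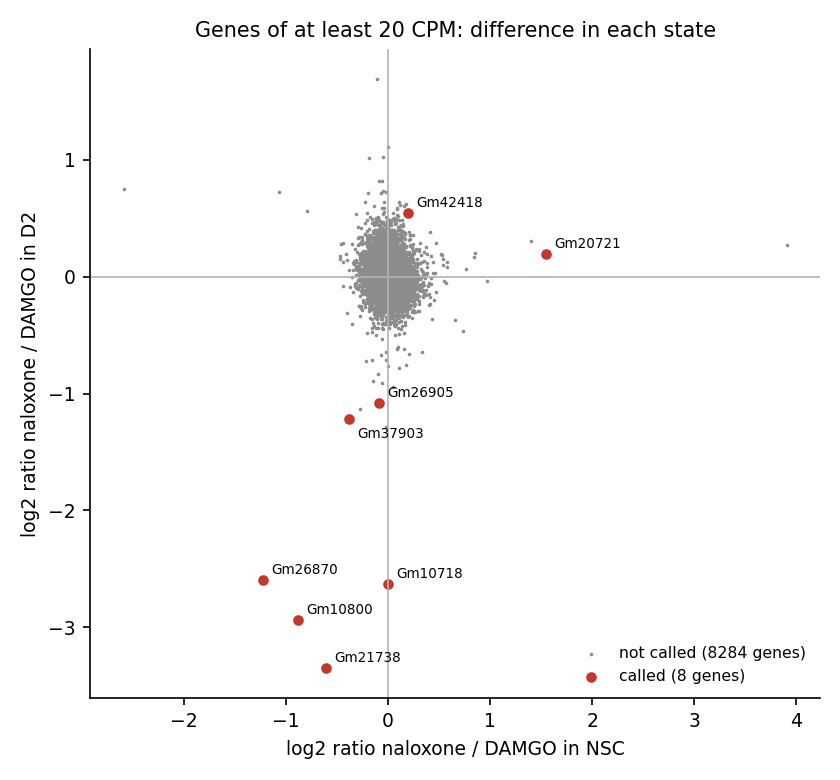
Log2 ratio of naloxone to DAMGO in NSC (horizontal) and D2 (vertical) for 8292 genes of at least 20 CPM, with the 8 called genes among them in red. The cloud is centred near 0 with Spearman's rho at -0.14. The called satellite genes, among them Gm10800, reach log2 ratios near -3 in D2. Gm26905 and Gm37903, also lower with naloxone, stand at -1.08 and -1.22 in D2.

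Part of the opposite signs followed base composition. Genes were put in 5 equal groups by transcript GC content. The group of lowest GC content (33.6% to 45.2%) had a median log2 ratio of -0.05 in NSC and 0.09 in D2, and the group of highest GC content (above 55.9%) had 0.04 and -0.10. GC content and length together accounted for 4.95% of the variance of the ratio in NSC and 11.3% in D2. After the trend was taken out, in an alternative added after seeing the data, 48.5% of genes of at least 5 CPM had the same sign. The reason for the trend was not tested.

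**Figure D4:**
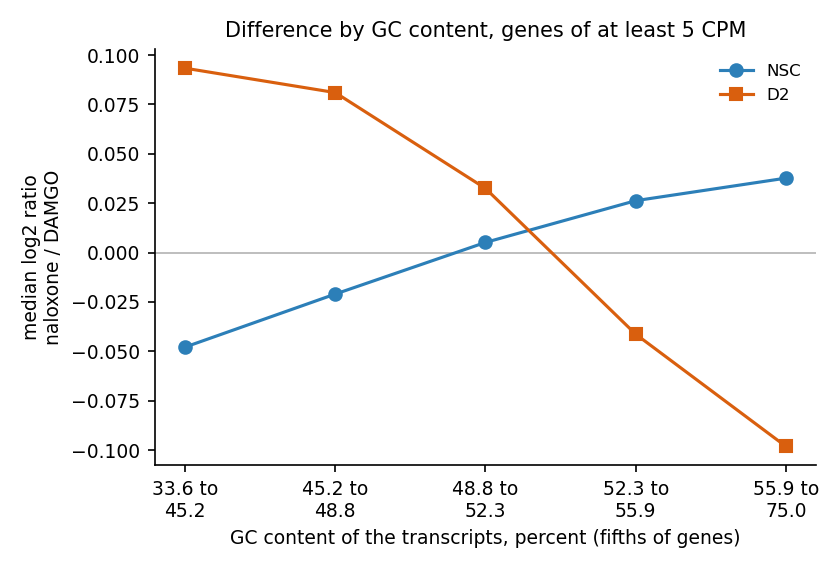
Median log2 ratio of naloxone to DAMGO in 5 equal groups of genes by transcript GC content (percent, range under each point), for NSC (circles) and D2 (squares), genes of at least 5 CPM. The line runs from -0.05 to 0.04 in NSC and from 0.09 to -0.10 in D2.

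No gene in the lists of pathways downstream of opioid receptors passed the test, as was so for nearly all tested genes. Of 24 tested Gi/o signalling partners (alpha, beta and gamma subunits, regulators and arrestins), none passed the test or had an unadjusted p under 0.05. Over all tested genes 0.243% passed and 333 of 13193 had an unadjusted p under 0.05, so none among 24 is near those shares. Their median log2 ratio was 0.04 in NSC and -0.03 in D2, beside 0.00 and 0.01 over all tested genes, and 15 of the 24 had opposite signs in the 2 states. Gnai2, the abundant inhibitory alpha subunit, had 502 and 472 CPM in NSC and 943 and 1000.1 CPM in D2. Gnaz, an alpha subunit of the same family, had 15.6 and 10.5 CPM in NSC and 11.4 and 11.1 CPM in D2, so that only the NSC pair differed, by 1.48-fold. All 20 genes of the cAMP and CREB list stayed above an unadjusted p of 0.05, with a median log2 ratio of 0.06 in NSC and 0.04 in D2. Dusp1, a phosphatase gene induced by cAMP and by ERK, had 22.1 and 17.7 CPM in NSC and 10.3 and 10.7 CPM in D2. The 18 genes of the ERK list had medians of 0.00 and -0.01 (log2 ratio), with no unadjusted p under 0.05.

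Several immediate early genes, the first transcripts to respond to receptor signalling, were higher with naloxone in NSC, while others were lower. Egr1, a zinc finger factor, had 373 CPM with naloxone, 284 with DAMGO and 286 in the control in NSC, a log2 ratio of 0.40 to DAMGO with a counting interval of 0.33 to 0.47. In D2 the 3 libraries had 21.1, 22.2 and 21.02 CPM. Fos had 42.9, 34.1 and 31.1 CPM in NSC and 3.32, 5.31 and 3.73 CPM in D2, so the NSC naloxone library was the highest of its state and the D2 naloxone library the lowest. Fosb, chosen after its values were seen, had 8.38, 4.42 and 4.06 CPM in NSC and 1.19, 0.339 and 1.18 CPM in D2 (log2 fold change over both states 1.03, SE 0.32, edgeR adjusted p = 0.613). The antiproliferative factor Btg2 had 46.8, 40.6 and 37.1 CPM in NSC and 303, 276 and 280 CPM in D2. In Egr1 (adjusted p = 1.00), Fos (1.00) and Btg2 (1.00) no difference passed edgeR's test over both states. Maff (log2 ratio -0.19 in NSC and -0.36 in D2) and Fosl2 (-0.21 and -0.20) were lower with naloxone in both states. Of the 24 tested genes of the list, 13 were higher with naloxone in NSC and 11 in D2. Over all tested genes 50.2% and 52.0% were higher. The medians of the list were 0.07 and -0.07 on the log2 scale, so it did not move as a whole with Egr1, Fos, Fosb and Btg2.

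Most genes of mitosis had a higher level with naloxone in D2, though none passed the test. Of 25 tested genes of the G2/M list, 20 had a higher level with naloxone in D2, beside 52.0% of all tested genes, and the median log2 ratio was 0.20 beside 0.01. In NSC 9 of the 25 were higher and the median was -0.02. Mki67, the marker of cycling cells, had 1550 and 1480 CPM in NSC (naloxone, DAMGO) and 41.3 and 29.7 CPM in D2, where the control had 22.4 CPM. Its D2 log2 ratio was 0.47 with a counting interval of 0.24 to 0.71, and over both states its log2 fold change was 0.19 (SE 0.08, edgeR adjusted p = 1.00). Top2a, the topoisomerase of dividing cells, had 1071 and 1117 CPM in NSC and 99.7 and 79.7 CPM in D2, with 82.0 CPM in the D2 control. Ckap2, a mitotic spindle protein, had 262 and 242 CPM in NSC and 35.1 and 22.5 CPM in D2, with 27.6 CPM in the control. In the replication list 16 of 27 were higher with naloxone in D2 (59.3%, near the 52.0% of all genes) at a median of 0.04. Its ribonucleotide reductase subunit Rrm2 stood at 45.2 and 32.2 CPM in D2 and at 382 and 379 CPM in NSC. Ccne1, the G1/S cyclin, had 49.5 and 41.8 CPM in NSC and 11.5 and 8.92 CPM in D2. No gene of either list passed the test. The G2/M genes have a low GC content (median 46.7%), the range where D2 ratios were above 0, and with the GC and length trend taken out their D2 median was 0.17. In bulk RNA, fewer cells of a kind and less RNA in each cell cannot be told apart, and with 1 D2 library per ligand neither can culture and ligand.

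**Figure D5:**
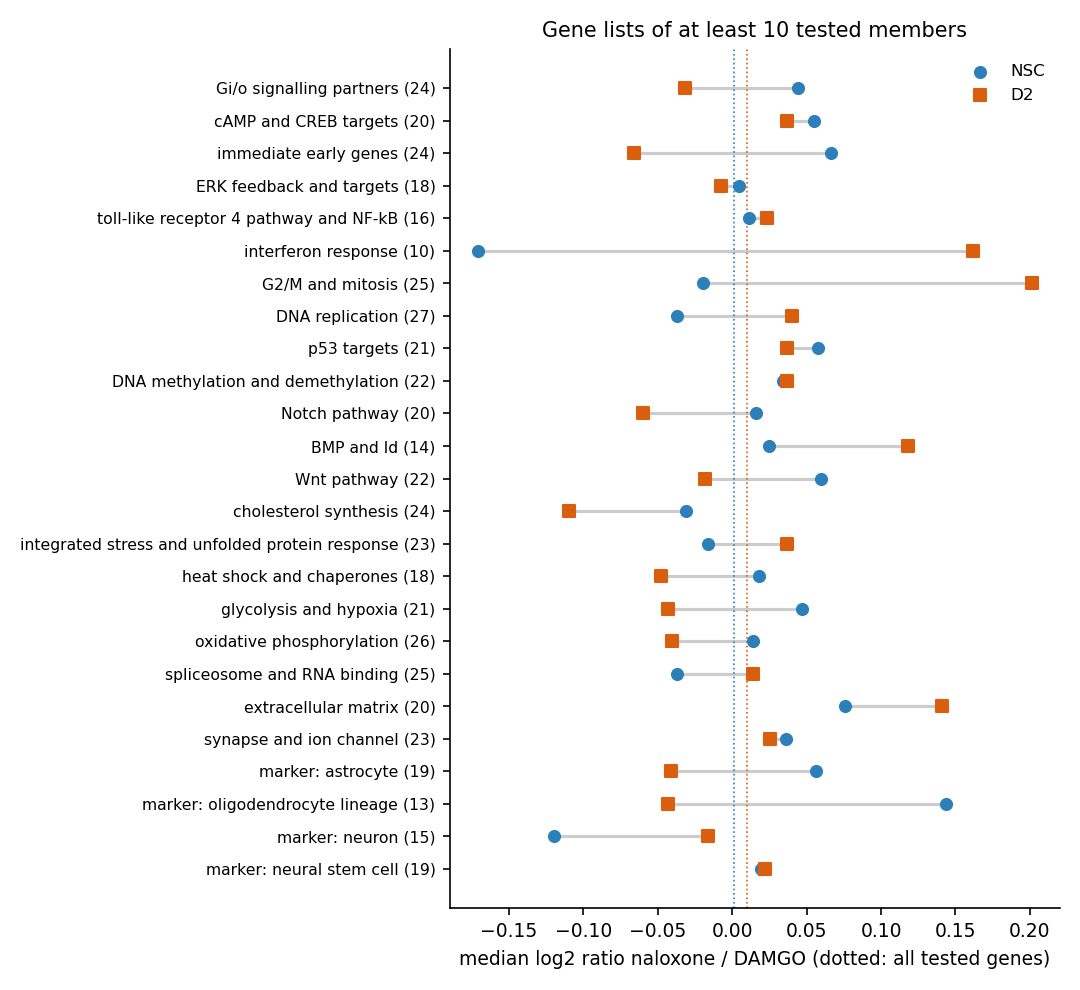
Median log2 ratio of naloxone to DAMGO in NSC (circles) and D2 (squares) for each gene list with at least 10 tested members, number tested in brackets, with the medians of all tested genes dotted. G2/M and mitosis stands at -0.02 in NSC and 0.20 in D2, and cholesterol synthesis at -0.03 and -0.11.

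Collagen transcripts appeared in the NSC naloxone library at low levels. These genes were chosen after their values were seen. Col1a1 had 49 and 5 counts in NSC (naloxone, DAMGO) and 7 and 6 in D2, with 10 and 49 in the controls. Col1a2 had 57 and 0 counts in NSC and 1 and 8 in D2, with 4 and 25 in the controls. Bgn, the proteoglycan biglycan, had 31 and 0 counts in NSC and 3 and 6 in D2, with 3 and 50 in the controls. The NSC naloxone library was the highest of the 4 in all of them, and the D2 control library was of the same order. Col3a1 (19, 0, 3 and 4 counts), Dcn (6, 0, 1 and 0) and Lum (3, 0, 0 and 0) followed the same order in NSC. Col1a2 had an edgeR adjusted p of 1.00 in the full test. It passed in the test limited to whole counts (log2 fold change 2.29, edgeR adjusted p = 0.00684), but not with DESeq2, limma or all 6 libraries. Its ratios were opposite in the 2 states (log2 ratio 4.46 in NSC and -1.79 in D2). Since Col1a2 was chosen by its values, that p is a description and no support. The genes given here are markers of fibroblasts and pericytes. Of that list of 14, 8 were tested, Col1a1 and Col1a2 only through the NSC naloxone library, where they are high. The summed level of all 14 was 161 and 142 CPM in NSC and 81.7 and 82.2 CPM in D2. The matrix gene Fbln2 made up 141 and 135 CPM of the NSC sums. The part of such cells in the difference was not tested. Of the 17 matrix genes that met the filter without their highest library, 11 were higher with naloxone in both states (64.7%, beside 23.8% of all such genes), with medians of 0.06 and 0.15, and none passed the test. Among the 11 were Sparc (145 and 130 CPM in NSC, 356 and 326 CPM in D2) and Tnc (2013 and 2012 CPM, 190 and 158 CPM).

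The summed levels of markers of the cell types that NSC could form differed little by ligand. The summed level of 20 astrocyte genes was 2096 and 1997 CPM in NSC and 14714 and 15226 CPM in D2. For 18 genes of the oligodendrocyte lineage it was 3311 and 3424 CPM in NSC and 6337 and 6686 CPM in D2, and for 21 neuronal genes 1609 and 1661 CPM and 1539 and 1493 CPM. Stem cell genes summed to 10088 and 10130 CPM in NSC and 7365 and 7652 CPM in D2. Counted by member, 16 of 19 tested astrocyte genes were higher with naloxone in NSC and 5 in D2 (median log2 ratios 0.06 and -0.04). For the oligodendrocyte lineage it was 11 of 13 in NSC and 2 in D2 (0.14 and -0.04). Of 15 neuronal genes 4 and 7 were higher (-0.12 and -0.02), and of 19 stem cell genes 13 and 11. Over all tested genes 50.2% and 52.0% were higher. Nes, the filament that marks neural progenitors, had 1860 and 1837 CPM in NSC and 413 and 407 CPM in D2. Gfap, the astrocyte filament, had 0.222 and 0.221 CPM in NSC and 11.4 and 10.8 CPM in D2, and Tubb3, a neuronal tubulin, had 10.3 and 12.4 CPM and 99.4 and 105 CPM. The astrocyte water channel Aqp4 had 2.08 and 0.664 CPM in NSC and 52.6 and 42.5 CPM in D2. Cst3, an abundant astrocyte transcript, had 107 and 104 CPM in NSC and 1381 and 1592 CPM in D2, lower with naloxone. Dcx, the microtubule protein of migrating neuroblasts, was lower with naloxone in both states at 8.75 and 10.7 CPM and 64.9 and 77.3 CPM (log2 fold change -0.27, SE 0.12, edgeR adjusted p = 1.00). No marker in these lists passed the test. Of 13 microglial markers 7 had no count in any of the 4 libraries, among them Aif1, Cx3cr1 and Tmem119.

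Other lists gave small medians. Naloxone can also bind at toll-like receptor 4, whose gene Tlr4 had 2.67 and 3.87 CPM in NSC and 0.119 and 0.226 CPM in D2. In the list of that pathway 16 of 24 genes were tested and none passed. Among its members of at least 5 CPM the largest ratios were those of Relb, an NF-kB subunit, at 7.86 and 5.09 CPM in NSC and 11.98 and 9.26 CPM in D2 (log2 fold change 0.49, SE 0.19, edgeR adjusted p = 1.00), and of the adaptor Ticam1 (log2 fold change -0.23). Cholesterol synthesis had 10 of 24 genes lower with naloxone in both states (41.7%, beside 21.7% of all tested genes) and 1 higher, with medians of -0.03 in NSC and -0.11 in D2. The isomerase Idi1 had 473 and 508 CPM in NSC and 79.6 and 93.6 CPM in D2, and the kinase Mvk had 63.7 and 69.8 CPM and 58.1 and 63.1 CPM. Hsp90aa1, a stress-inducible chaperone, had 943 and 1006 CPM in NSC and 189 and 214 CPM in D2. The TET dioxygenases, which start active DNA demethylation, were among the genes that did not pass. Tet1 had 61.9 and 60.5 CPM in NSC and 38.7 and 42.1 CPM in D2, Tet2 had 43.9 and 40.3 CPM and 42.0 and 40.9 CPM, and Tet3 had 224 and 216 CPM and 193 and 194 CPM. None of the 630 list entries, not all of which were tested, was among the called genes, which were 0.243% of all tested genes.

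The named genes with the largest ratio shared by both states did not pass the test, apart from Tom1. They were ranked by the smaller of their 2 ratios among genes of at least 5 CPM. Snurf, an imprinted gene that shares its transcript with Snrpn, so that reads may be divided between them, led the higher side with 5.49 and 2.76 CPM in NSC and 10.8 and 6.55 CPM in D2 (log2 fold change 0.83, SE 0.23, edgeR adjusted p = 0.306). With naloxone its level was above that of DAMGO and of the control in each state, and it passed without a filter on low counts (adjusted p = 0.0348). Thbs1, a matrix glycoprotein, had 5.93 and 2.65 CPM in NSC and 9.37 and 6.44 CPM in D2 (log2 fold change 0.80, SE 0.24, edgeR adjusted p = 0.507). Vat1l, Pcdha12, Fam189b, Nrg2, Anxa2, Abhd15, Crispld2 and Bcl2l12 followed, with log2 fold changes of 0.43 to 0.75 and levels of at most 12.6 CPM. On the lower side, after Tom1, stood Tmem25, Hist3h2ba, Prrg2, Gpatch3, Pou3f1, Acot8, Scly, Ccdc13 and Slc25a22, with log2 fold changes of -0.51 to -0.32. Pou3f1, a POU factor of neural and oligodendrocyte progenitors, had 31.1 and 39.9 CPM in NSC and 5.34 and 7.11 CPM in D2, with 30.8 and 7.27 CPM in the controls (log2 fold change -0.37, SE 0.14, edgeR adjusted p = 1.00). The difference there was of DAMGO from the other libraries in NSC and of naloxone from the others in D2.

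Within a single state, the named genes with the largest ratios were different ones. In NSC, Zbed6, a transposon-derived repressor, had 56.7 and 34.1 CPM with 51.1 CPM in the control, Foxp4, a forkhead factor, had 23.4 and 16.9 CPM, and Crlf2, a cytokine receptor, had 24.5 and 17.8 CPM. The lowest, besides Tom1, were Slirp, a mitochondrial RNA-binding protein, at 24.0 and 33.3 CPM and Ap1s2, an adaptor subunit, at 24.7 and 34.2 CPM. In these 5 the control lay between the ligands. In D2 the highest besides Lars2, and BC037034 as given above, were Ckap2 and Taco1, a translational activator of cytochrome c oxidase (24.7 and 16.3 CPM). The lowest in D2 were Hmga1b at 17.7 and 30.5 CPM, Fgd4, an exchange factor for Cdc42, at 33.7 and 57.2 CPM, and Hsd3b2 at 15.7 and 25.1 CPM. All 3 have fractional counts, and their NSC log2 ratios were 0.11, 0.00 and -0.07.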

How the data were processed

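RNA sequencing libraries were made with a TruSeq RNA kit that does not mark strand, so sense and antisense reads cannot be told apart. The deposited values are RSEM expected counts and TPM per Ensembl gene. Bowtie, RSEM and the mm10 genome are named in the submitters' processing notes, without versions. The authors' expected counts were rounded to whole numbers and tested with edgeR's quasi-likelihood test (edgeR 4.0.16, R 4.3.3, TMM size factors, Benjamini-Hochberg adjustment, threshold 0.05) in a model of state and ligand, with 1 residual degree of freedom, on genes with a mean count of at least 10. The authors' TPM were tested with limma 3.58.1 as log2(TPM + 1), and DESeq2 1.42.0 was run as an alternative. CPM given for single genes are scaled by TMM factors, and those of the satellite genes and the Gm26905 group by library totals. The state is the pairing of the libraries, and every label carries the same replicate number, so there is no pairing by number to check. Ratios within a state carry exact 95% binomial intervals on the counts, which cover counting error only. Tested on simulated data for this comparison over 13193 genes, the model recovered 97.0% of genes changed 1.5-fold and 100% of those changed 2-fold or 4-fold, and called 13 unchanged genes. The changed genes were all of at least 20 CPM and changed alike in both states. These shares say nothing of genes of lower level or of changes in a single state. Of the 29267 gene identifiers, 28756 were matched to GENCODE M21, the source of coordinates, transcripts, GC content and sequences. Sequence sharing is the share of a gene's 31-base words found in another gene.

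The members and lists were chosen with earlier results of these data known. Named were all called genes, the 10 highest and 10 lowest with the same sign in both states (at least 5 CPM), the 6 with the most opposite ratios, the 3 highest and 3 lowest within each state (at least 20 CPM), the leading members of each list discussed, and receptor, peptide, Tet and marker genes. Predicted genes were named only where called or where they share sequence with a called gene.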

Additional observations from a re-analysis of the deposited data

Results flagged for a closer look

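Of the 13193 tested genes, 7156 did not have the same sign in both states, and several other named genes are among them. In the 6 named genes given here the naloxone library was the higher of its pair in one state and the lower in the other. The difference between the states was not tested, since each state has 1 library per ligand. Zbed6 had 56.7 and 34.1 CPM (naloxone, DAMGO) in NSC and 13.04 and 18.1 CPM in D2, and its log2 ratio in NSC minus that in D2 was 1.19. For Slc25a42, a mitochondrial carrier of coenzyme A, the values were 10.2 and 7.52 CPM in NSC and 28.7 and 36.9 CPM in D2, a difference of 0.80. The immediate early gene Fos, described above, had a difference of 0.98. In the other direction, Rfc4, a subunit of the clamp loader of DNA replication, had 46.2 and 57.3 CPM in NSC and 14.7 and 10.05 CPM in D2, a difference of -0.85. Fam177a had 17.9 and 22.1 CPM in NSC and 24.7 and 18.3 CPM in D2, a difference of -0.73. Cyp2j9, a cytochrome P450, had 12.4 and 15.3 CPM in NSC and 55.4 and 43.9 CPM in D2, a difference of -0.63. These 6 were picked as the most opposite of the genes of at least 20 CPM.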

How the results depend on the processing

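Counts of genes that passed are compared with the 32 of edgeR's test. Without a filter on low counts 52 passed, with all 6 libraries 4, with whole counts only 5, with DESeq2 2 (18 at an unadjusted p under 0.05), and with limma on log2(TPM + 1) or log2(TPM + 0.1) 0 (413 and 431 at an unadjusted p under 0.05). The state is the pairing here, and with no replicate block for state 0 passed and 1 gene had an unadjusted p under 0.05. No paired analysis by replicate number was possible because all libraries carry the same number. Since 3 of the 4 libraries leave no residual degree of freedom, 1 library at a time was left out of the fit of all 6, and 9 to 45 passed (9 without D2 DAMGO, 15 without D2 naloxone, 18 without NSC naloxone). These fits bring in the controls and drop a library at once, so their counts cannot be put down to the library left out. The same-sign share was 42.1% at a mean of at least 500 counts and 48.5% with the GC and length trend removed. Genes past 1.5-fold numbered 41 (at least 5 CPM) and 1 (at least 50 CPM) in NSC, and 138 and 10 in D2.

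Direction turned in the following cases, and the cause was not tested. For Oprl1 the log2 ratio was -0.0037 with RLE and -0.0038 with library size scaling, -0.00083 without a filter, -0.0068 at a mean of at least 50, -0.019 with 6 libraries, -0.20 and -0.29 with limma (pseudocounts 1 and 0.1) and -0.22 with DESeq2. With limma it was -0.39 and -0.46 for Fos, 0.32 and 0.34 for Rfc4, 0.24 and 0.24 for Hmga1b, 0.045 and 0.049 for Tet1, and 0.016 for Gnai2. With DESeq2 it was 0.0012 for Slc25a42, -0.054 for Fos and 0.062 for Rfc4. Without a filter it was 0.011 for Ogfr and 0.019 for Gnai2, and with no replicate block -0.031 for Top2a.

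In those fits of 5 libraries, where a ligand library is missing the remaining one of its state bears on the contrast through the control, so a turn of sign there is not a turn of the naloxone to DAMGO ratio in the pair that remains. The log2 ratio ranged from -5.61 to 2.52 for Gm10800, -6.02 to 2.19 for Gm26870, -7.13 to 5.82 for Gm10718, -3.62 to 0.50 for Gm10801, -4.06 to 2.94 for Gm10717, -3.15 to 3.35 for Gm10720, -4.53 to 1.62 for Gm10715 and -1.86 to 0.54 for Gm10719. It ranged from -0.42 to 2.40 for Gm20721, -0.086 to 0.75 for Gm42418, -1.23 to 0.028 for Gm26905, -0.32 to 1.12 for Lars2, -2.63 to 7.82 for Col1a2, -0.27 to 3.66 for Col1a1 and -0.85 to 6.67 for Bgn. For genes opposite or extreme in a state it ranged from -0.27 to 0.65 for Zbed6, -0.31 to 0.37 for Slc25a42, -0.54 to 0.29 for Fos, -0.27 to 0.43 for Rfc4, -0.26 to 0.38 for Fam177a, -0.21 to 0.28 for Cyp2j9, -0.0087 to 0.42 for Crlf2, -0.45 to 0.12 for Slirp, -0.42 to 0.11 for Ap1s2, -0.66 to 0.026 for Hmga1b and -0.87 to 0.064 for Fgd4. For list genes it ranged from -0.84 to 0.18 for Oprl1, -0.058 to 0.042 for Ogfr, -0.045 to 0.38 for Egr1, -0.17 to 0.056 for Tet1, -0.019 to 0.052 for Tet3, -0.11 to 0.18 for Gfap, -0.077 to 0.072 for Gnai2, -0.017 to 0.29 for Dusp1, -0.043 to 0.29 for Top2a and -0.21 to 0.030 for Cst3.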

Other observations

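The interferon response list, which no comparison above described, had 10 of 22 genes tested. With naloxone 3 of the 10 were higher in NSC and 8 in D2, beside 50.2% and 52.0% of all tested genes. The median log2 ratios were -0.17 in NSC and 0.16 in D2, and none passed edgeR's test. Of the 9 that met the filter without their highest library, 2 were higher in NSC and 7 in D2, at medians of -0.23 and 0.07. Of 14 genes of the BMP and Id list, 11 were higher with naloxone in D2 (78.6%, beside 52.0% of all tested genes) and 8 in NSC, at medians of 0.12 and 0.02. Of 26 genes of oxidative phosphorylation, 8 were higher with naloxone in D2 and 14 in NSC, at medians of -0.04 and 0.01.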
